A study of Mus musculus with 2 samples.

Results

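In the E12.0 mandibular epithelium, cells were picked out by UMIs of 3 genes, not all of which every cell carried. The genes are Wnt9b, a secreted WNT ligand, Otx1, a homeodomain transcription factor, and Lmo1, a LIM-only cofactor of transcription. These cells were chosen by their own counts of those genes. A cell was taken when its Wnt9b, Otx1 and Lmo1 UMIs summed to at least 3, while Gjb2 and Gjb6 summed to at most 2, Pthlh, Unc5c and Runx1 to at most 1, and the periderm genes Ppl, Pkp1, Grhl3 and Nebl to at most 2. Of 11355 cells kept in the E12.0 library, 1871 (16.5%) met the rule, and they are called members here. Both libraries together held 24099 kept cells.

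GFP-positive epithelial cells were sorted from mandibular arches of 6 pooled littermate embryos at E12.0 and sequenced as 1 10x library. The E9.5 library held unsorted cells of whole mandibular arches of 8 pooled embryos, mesenchyme included. All embryos are labelled K14Cre;R26mT/mG, in which Cre under a keratin 14 promoter switches the cells that expressed it from membrane Tomato to membrane GFP, so the E12.0 sort kept keratin 14 lineage cells only. No group was treated. Each stage is 1 library, so differences between cells have no replicate check, and intervals given below (95%, exact) cover counting error only.

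A UMI is 1 counted transcript molecule, and CPM gives a gene's UMIs per 1000000 UMIs when all cells of a group are summed. Members had a median of 6588 UMIs and 2835 genes per cell and 13362967 UMIs in all. The 9484 other kept cells had medians of 6298 UMIs and 2763 genes and 64573397 UMIs in all. Scrublet called 5.88% of members and 5.81% of the other cells doublets, and these were kept. When kept cells were ordered by UMIs and cut into 4 equal groups, members were 11.5% of the shallowest group and 17.9%, 18.9% and 17.6% of the others, so the share was lowest where the fewest molecules were counted. Cells with at least 3 UMIs of Wnt9b, Otx1 and Lmo1, whatever the upper limits, were 16.4%, 28.5%, 31.9% and 40.9% of these groups. That part of the rule thus rose with depth throughout. Of the kept barcodes of the libraries, 44 were present in both.

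By way of background, the epithelium at the front of the mandible, outside the tooth-forming region, contributes to skin and lip. WNT ligands are lipid-modified proteins that need Wls to leave the cell, bind Frizzled receptors with LRP co-receptors, and stabilise beta-catenin, which acts with TCF/LEF factors. Axin2, Znrf3 and Rnf43 are known feedback genes that restrain this pathway where it is active. In the face, epithelial WNT ligands signal within the epithelium and to the mesenchyme beneath it.

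All 3 genes of the rule contributed to it. The summed count ran from 3 to 17 per member with a median of 4, and 506 members (27.0%) sat exactly at the threshold of 3, while 617 cells within the upper limits had 2. UMIs of all 3 genes were found in 720 members (38.5%, exact binomial interval 36.3 to 40.7%). Wnt9b with Lmo1 was found in 498 members, Otx1 with Lmo1 in 322 and Wnt9b with Otx1 in 134. A single gene carried the rule in 139 members for Lmo1, 32 for Wnt9b and 26 for Otx1. Because these genes chose the cells, their levels in members are a description. They were 199 CPM for Wnt9b, 148 CPM for Otx1 and 364 CPM for Lmo1, against 46.3, 41.5 and 88.9 CPM in the other cells.

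The level of each gene can be read in cells chosen by the other pair. Among 1997 cells within the same limits with at least 2 UMIs of Otx1 and Lmo1, Wnt9b was 152 CPM (interval 146 to 158), against 25.4 CPM (23.4 to 27.6) where neither had a UMI, a ratio of 5.97 (5.44 to 6.57). Otx1 was 113 CPM in the 2116 cells chosen by Wnt9b and Lmo1 and 23.7 CPM in cells with neither, a ratio of 4.77 (4.32 to 5.27). Lmo1 was 270 CPM in the 1579 cells chosen by Wnt9b and Otx1 and 52.0 CPM in cells with neither, a ratio of 5.19 (4.85 to 5.55). Against all other kept cells the ratios were smaller, at 2.76 (2.61 to 2.91) for Wnt9b, 2.40 (2.26 to 2.55) for Otx1 and 2.38 (2.28 to 2.48) for Lmo1. Each of the 3 genes was thus more abundant where the other pair was present, in both comparisons. The upper limits of the rule divided this epithelium. A further 1470 cells had at least 3 UMIs of the 3 genes but exceeded a limit, 770 of them that of Gjb2 and Gjb6, 750 that of Pthlh, Unc5c and Runx1 and 58 the periderm limit, and 16.0% of them were called doublets. All of these are counted among the other cells, so the ratios against the other cells include cells with the same 3 transcripts.

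The cells also lay together in genes the rule did not use. With the rule genes, cell cycle genes and sex genes left out, 48.0% of the 15 nearest cells of a member were members, against 16.5% of all kept cells. Cells over an upper limit made up 22.8% of the neighbours of members (12.9% of kept cells), and ventral cells, with at least 3 UMIs of Gjb2 and Gjb6, 15.6% (9.5% of kept cells). These groups overlap, since a cell with many Gjb2 and Gjb6 UMIs can also carry the 3 transcripts. Cells within the limits but without a UMI of the 3 genes made up 3.8%, although they were 28.2% of kept cells. The cells without the 3 transcripts were thus the rarest of these neighbours of members.

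The label anterior was set beside marker genes outside the rule. These markers come from earlier readouts of this library, the study's own included, so their direction is a description and not independent evidence. Piezo2, a mechanically gated ion channel, was 127 CPM (121 to 134) in members and 47.8 CPM in the other cells. Pcp4l1, a small protein related to a calmodulin regulator, was 45.8 CPM (42.2 to 49.6) against 16.9 CPM. Both were higher in members, as were all 4 anteroventral-medial markers, Pcp4l1, Npr3, Kitl and Robo2. Against the ventral cells these markers went both ways. Of the 4, only Pcp4l1 was higher in members, while Npr3 (112 CPM in members and 150 CPM in ventral cells) and Robo2 (183 and 274 CPM) were lower. Kitl (97.2 and 115 CPM) did not meet the criteria given below. The anterodorsal lists were mixed. Of the anterodorsal-medial markers outside the rule, Slc4a4 was lower (38.8 against 53.2 CPM), Rxfp1 did not meet the criteria (50.6 against 47.7 CPM) and none was higher, although both were higher in members than in ventral cells. Of the 3 anterodorsal-lateral markers Col12a1 was higher, Meis1 lower (92.2 against 142 CPM) and Krt15 neither (309 against 303 CPM). Lgr6 and Lgals7, the single markers of the study's 2 ventral lists that could be judged, were higher in members than in all other cells. Of 7 dental markers, 5 were in enough cells to be judged, and all 5 were lower, among them Irx1, Fst, Enc1 and Dsc3. Of the 5, 4 were in enough cells only among the other cells, so that the choice of genes to be judged itself favoured this direction. Of the 3 medial markers, Isl1 and Tlx1 were lower too, and Bmp4, in too few cells to be judged, was 12.9 CPM in members and 9.0 CPM in the others. The lateral marker Fgf8, also in too few cells, was 8.2 CPM in members and 28.3 CPM in the others. The posterior markers Dmrt2, Ccn4, Rprm, Rtl3 and Col14a1 summed to 9.9 CPM in members and 78.6 CPM in the other cells. Epithelial genes were well covered, with Krt14 at 741 CPM in members and 667 CPM in the others and Epcam at 360 and 440 CPM.

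Markers of other cell types were near 0. The 8 mesenchyme markers summed to 8.08 CPM in members and 10.1 CPM in the other cells, with Col1a2 the most abundant at 5.9 CPM and 2 of the 8 without a UMI in members. Markers of neurons summed to 4.86 and 8.80 CPM, of Schwann and neural crest cells to 6.66 and 8.36 CPM, of Merkel cells to 1.87 and 1.72 CPM, of endothelium to 1.35 and 1.36 CPM, of red blood cells to 1.35 and 0.774 CPM, of immune cells to 0.524 and 0.418 CPM and of muscle to 0.299 and 0.325 CPM. Each of these lists summed to under 10 CPM in members. Of the 3 periderm markers not in the rule, Marveld2 was the most abundant in members, at 5.0 CPM.

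Against all other kept cells, 208 of 6341 genes were higher in members (3.28%) and 216 were lower (3.41%). A gene counted as higher or lower when its CPM ratio was at least 1.3 in that direction and at least 15% of cells in the group with the higher level had a UMI of it. The 12 genes of the rule were left out, and the median log2 ratio of all genes looked at was -0.015. These are size criteria and not tests, since cells of 1 library are not replicates. Of the 208 higher genes, 80 reached 15% of cells only in members, and of the 216 lower genes 67 did so only in the other cells. Such genes could hardly have been called in the other direction, so counts and medians of lists that hold many of them describe the genes looked at and not the whole list.

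The most abundant gene of the higher group was Cxcl14, a chemokine made by epithelia. It was 1783 CPM (1761 to 1806) in members and 673 CPM in the other cells, a log2 ratio of 1.41 (1.38 to 1.43), and 98.0% of members had a UMI of it. Tfap2b, an AP-2 transcription factor of facial ectoderm and neural crest, was 898 CPM (882 to 914) against 323 CPM, a log2 ratio of 1.47 (1.44 to 1.51). A UMI of Tfap2b was found in 96.4% of members. Free RNA, taken up below but not measured, can add to such shares. Robo2, a receptor for Slit guidance cues, was 183 CPM (175 to 190) against 61.8 CPM, a log2 ratio of 1.56 (1.49 to 1.64). Col12a1, a fibril-associated collagen, was 160 CPM against 68.0 CPM, Gas1, a cell surface protein that binds Hedgehog, 192 against 88.7 CPM, Htra1, a secreted serine protease, 55.8 against 22.4 CPM, and Lrp2, the endocytic receptor megalin, 26.7 against 11.8 CPM. The largest ratio, 3.38, belonged to Rprml at only 25.7 CPM, with a UMI in 15.9% of members and 4.42% of the others. The remaining genes of the 25 with the largest ratios were Fam129a, Nr2e3, Plbd1, Cacng4, C130021I20Rik, Irx4, Rab27b, Plppr1, Msx1, Ndrg2, Nckap5, Lgals7, Ccdc68 and Ehbp1, besides Wnt3, Pcp4l1 and Piezo2, with ratios down to 2.09.

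Free RNA in the droplets gives some UMIs in cells that do not express a gene, and its amount was not measured. The share of cells with a UMI also depends on depth. Cells were drawn down to an equal 4100 UMIs each, and 1024 cells with fewer (75 of them members) were dropped. This evens out depth but leaves free RNA in place. Of the posterior cells used below, 10.3% were called doublets before thinning, so their shares are not a measure of free RNA. Piezo2 was then found in 37.9% of members and in 2.82% of the cells with at least 3 UMIs of the posterior genes Dmrt2, Rtl3 and Col14a1. Robo2 was found in 45.5% of members and 3.13% of those posterior cells, Cxcl14 in 96.1% and 12.9% and Tfap2b in 92.4% and 22.3%. Without thinning Piezo2 was found in 51.8% of members and 6.56% of posterior cells, at median depths of 6588 and 8060.5 UMIs. In ventral cells thinned alike the shares were 37.9% for Piezo2, 59.7% for Robo2, 96.7% for Cxcl14 and 96.0% for Tfap2b. At equal depth the members were thus above the posterior cells for each of these genes, but not above the ventral cells for any of them beyond the intervals.

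Several genes of the tooth and oral field were among those with the smallest ratios. Barx1, a homeobox gene of molar and posterior oral territories, was 4.71 CPM (3.62 to 6.02) in members and 87.3 CPM in the other cells, a log2 ratio of -4.21 (-4.59 to -3.85). Sox2, a factor of dental and oral progenitors, was 9.43 against 80.3 CPM, and Irx1 4.79 against 43.8 CPM. Foxe1, a forkhead factor of the oropharyngeal epithelium, was 5.76 against 47.3 CPM. The desmosomal cadherin Dsc3 was 11.9 against 111 CPM and the simple-epithelium keratin Krt8 7.41 against 56.9 CPM. Meg3, an imprinted long non-coding RNA, was 112 against 616 CPM. The other genes among the 15 with the smallest ratios were Atxn1, Fst, Epha7, Nfia, Tshz2, Sox9, Enc1 and Dapl1.

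**Figure D1:**
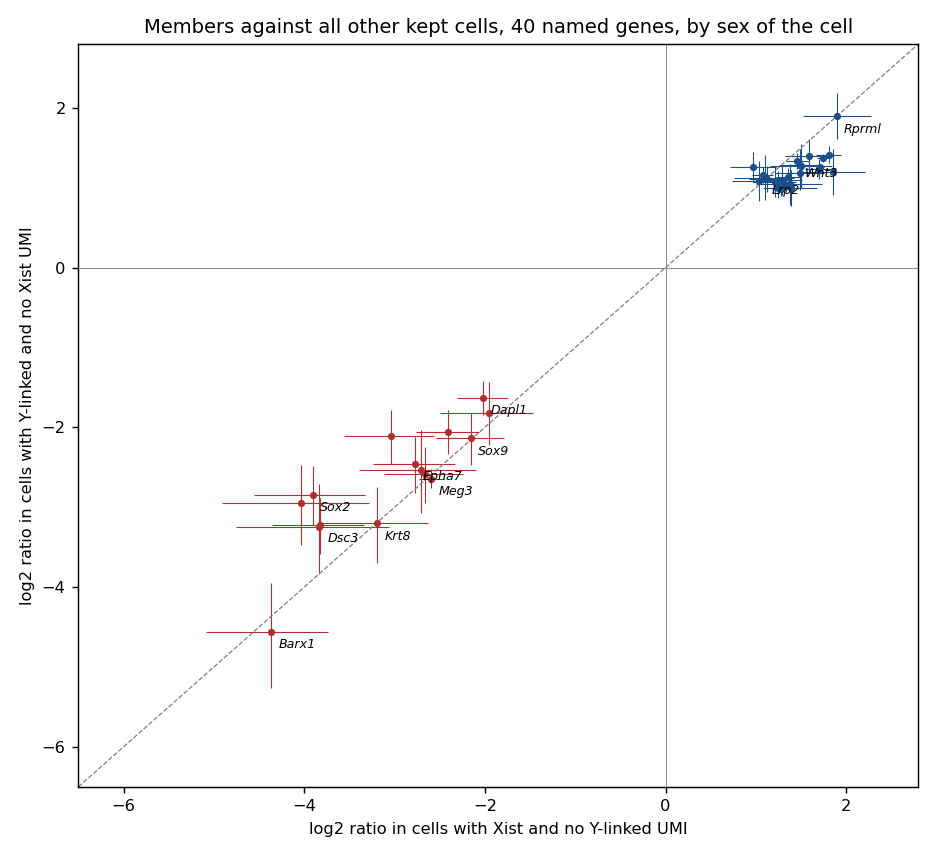
Log2 CPM ratio of members against all other kept E12.0 cells for the 25 named higher genes (blue) and 15 named lower genes (red), in cells with Xist and no Y-linked UMI (x axis) and in cells with a Y-linked and no Xist UMI (y axis). Bars are 95% exact intervals, the dashed line marks equal ratios, and genes named higher lie above 0 and genes named lower lie below 0 on both axes.

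Female and male cells come from different embryos of the litter. Cells with Xist and no Y-linked UMI gave 601 members and 3044 other cells, and those with a Y-linked and no Xist UMI gave 854 and 4011. Piezo2 was 132 CPM in female and 124 CPM in male members and 40.6 and 52.9 CPM in the other cells of each sex. Tfap2b was 881 and 926 CPM in members and 264 and 358 CPM in the others, and Barx1 was 4.7 and 3.4 CPM in members and 97.5 and 81.5 CPM in the others. For these genes the levels in members of the sexes lay closer to each other than to the other cells. Of the 208 higher genes, 169 had a ratio of at least 1.3 in both sexes, and of the 216 lower genes 177 had the reverse. All 424 had the same direction in both, but they had been picked on the cells of both sexes pooled.

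The level of genes outside the rule also followed the number of rule UMIs. Among cells within the upper limits, Cxcl14 was 123 CPM in cells with no UMI of the 3 genes, 596 CPM with 1, 1197 CPM with 2, 1566 CPM with 3, 1805 CPM with 4 or 5 and 1904 CPM with 6 or more. Piezo2 was 9.6, 46.0, 89.5, 97.7, 130 and 144 CPM over the same steps, and Robo2 14.6, 42.9, 97.8, 157, 172 and 210 CPM. Barx1 ran the other way, at 110, 41.0, 11.9, 7.7, 3.5 and 4.0 CPM. Cells with 2 UMIs, just outside the threshold, were thus already closer in Cxcl14 to those with 3, just inside, than to those with none. Cells with more rule UMIs were deeper, with a median of 7631 UMIs at 6 or more and 5931 at none. In cells thinned to 4100 UMIs, where both the rule and the levels were read anew, Cxcl14 still went from 219 CPM with none to 2215 CPM with 6 or more, and Piezo2 from 16.8 to 174 CPM.

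**Figure D2:**
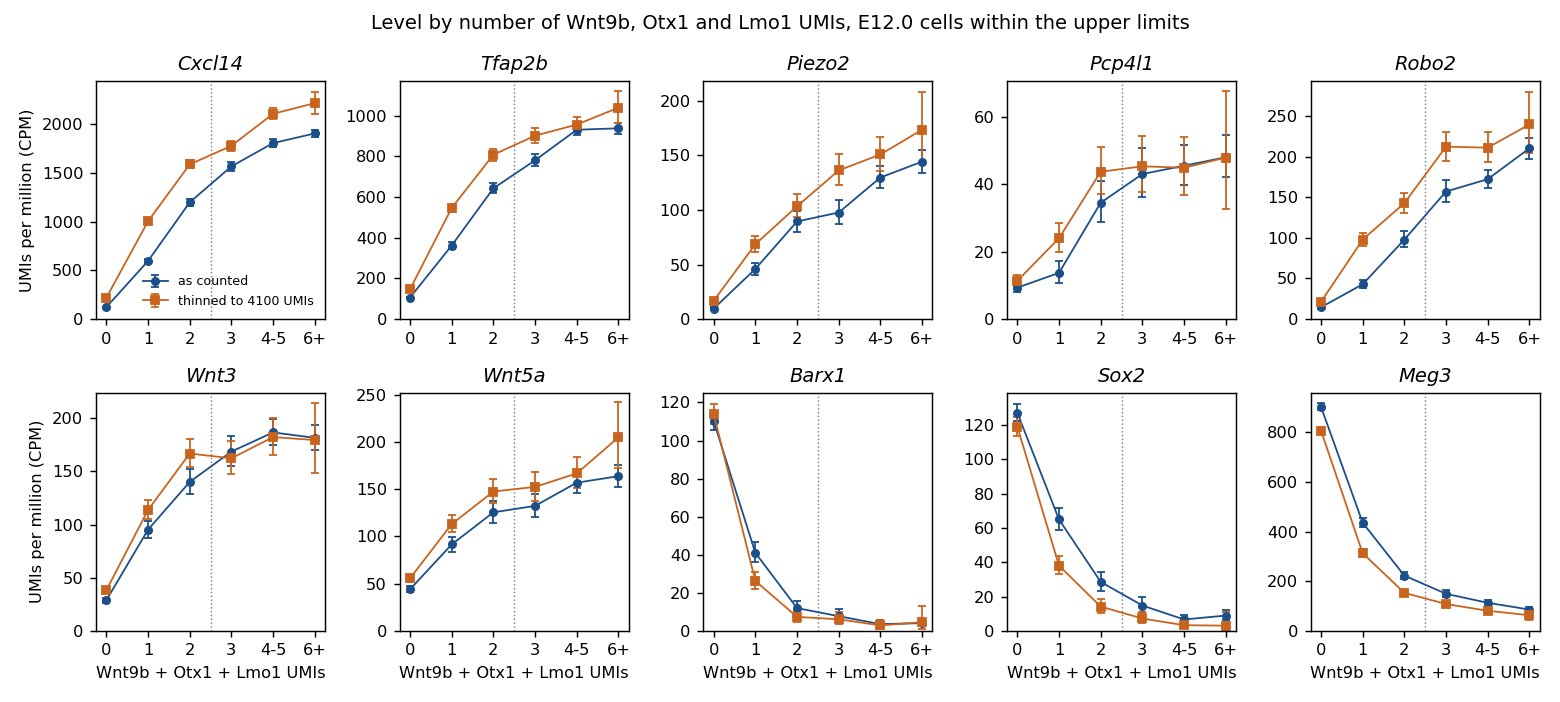
CPM of 10 genes outside the rule (y axes, from 0) by the summed Wnt9b, Otx1 and Lmo1 UMIs of the cell (x axes), in E12.0 cells within the upper limits, as counted (blue circles) and thinned to 4100 UMIs (orange squares). Bars are 95% exact Poisson intervals, the dotted line is the threshold of 3, and Cxcl14, Tfap2b, Piezo2, Pcp4l1, Robo2, Wnt3 and Wnt5a were higher with 6 or more UMIs than with none, and Barx1, Sox2 and Meg3 lower.

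WNT ligands other than Wnt9b that could be looked at were higher in members. Of 18 ligand genes outside the rule, 5 had UMIs in enough cells to be looked at, and all 5 were higher in members, with a median log2 ratio of 0.86. The highest level was that of Wnt4, at 1002 CPM (985 to 1019) against 554 CPM. Wnt7b was 375 against 182 CPM, Wnt6 369 against 243 CPM, Wnt3 180 against 72.2 CPM and Wnt5a, a ligand mostly known for signalling without beta-catenin, 154 against 90.1 CPM. Wnt7a, at 21.7 against 9.8 CPM, and Wnt10a, at 19.5 against 15.7 CPM, were in too few cells for the criteria, as were the other ligands, of which 2 had no UMI in members. Together the ligands outside the rule summed to 2157 CPM in members and 1191 CPM in the other cells. Wls, which carries WNT proteins to the cell surface, was 529 against 355 CPM.

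Receptor, feedback and nuclear genes of the WNT pathway were looked at in the same way. Of 11 receptor and secretion genes looked at, Fzd3, Fzd10, Lgr6 and Wls were higher and Fzd7 was lower, with a median log2 ratio of -0.027. Fzd10 was 98.6 against 49.3 CPM and the R-spondin receptor Lgr6 30.0 against 19.6 CPM. Of 7 antagonist and feedback genes, Znrf3 (118 against 72.5 CPM) and Kremen2 (115 against 86.8 CPM) were higher and none was lower. Axin2 was 50.7 against 40.5 CPM, a log2 ratio of 0.32 that misses the criteria. Among 11 TCF/LEF and nuclear factors only Tcf7l2 met them, at 112 against 149 CPM, while Lef1 was 179 against 150 CPM.

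**Figure D3:**
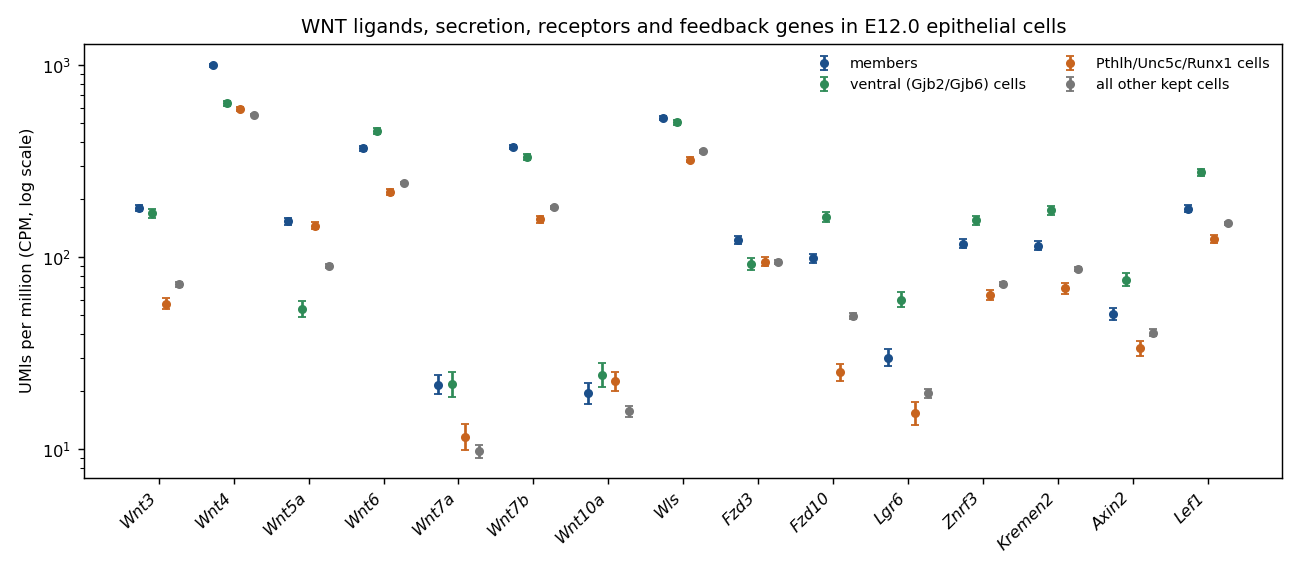
CPM (log axis) of WNT ligands, Wls, receptors and feedback genes in members (blue), ventral cells (green), cells chosen by Pthlh, Unc5c and Runx1 (orange) and all other kept E12.0 cells (grey). Bars are 95% exact Poisson intervals, and the members exceed all other kept cells at each of the 5 ligands looked at, and the ventral cells exceed the members at Fzd10, Lgr6, Znrf3, Kremen2, Axin2 and Lef1.

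Wnt9b, Wnt3 and Rprml are neighbours on chromosome 11, a fact noticed after their values were seen. In the GENCODE annotation of GRCm38, Wnt9b lies on the minus strand at chr11:103727364-103749821 and Wnt3 on the plus strand at chr11:103774150-103817957, with starts 24.3 kb apart and pointing away from each other. Rprml, on the plus strand at chr11:103649570-103650579, starts 100.3 kb from the start of Wnt9b. Of 15 protein-coding genes within 500 kb on either side, 5 besides Wnt9b could be looked at, and Rprml and Wnt3 were higher in members. Over all genes looked at, 3.28% were higher, but these neighbours were noticed first, so the shares cannot be set against each other. Rprml reached 15% of cells only in members (15.9% against 4.42%), so it could hardly have been called lower. Gosr2, between Rprml and Wnt9b, had a log2 ratio of 0.29 (0.14 to 0.43), Nsf one of 0.30 (0.18 to 0.43) and Arf2 one of 0.18 (0.025 to 0.33), none of which met the criteria.

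**Figure D4:**
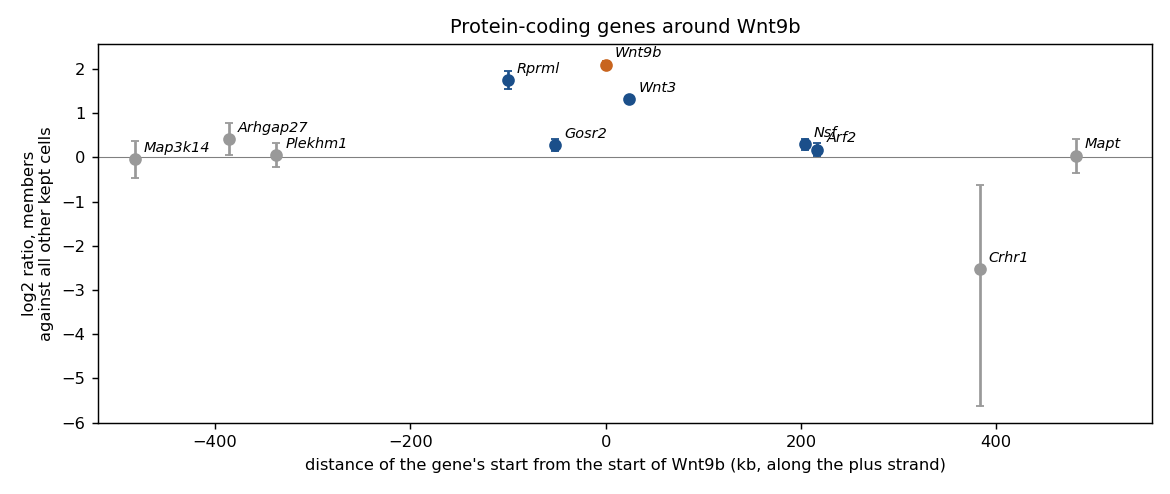
Log2 CPM ratio of members against all other kept E12.0 cells (y axis) for protein-coding genes around Wnt9b, by the distance of each gene's start from that of Wnt9b in kb (x axis). Blue points were looked at, grey points had a UMI in under 15% of cells of both groups, Wnt9b (orange) is a rule gene, bars are 95% exact intervals, and Rprml and Wnt3 lie above 1 while Gosr2, Nsf and Arf2 lie below 0.4.

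The start windows of this gene pair and of Lmo1 are shown because the transcripts were found in the same cells. They are RefSeq windows of 300 bases in GRCm38.p6, 5′ to 3′ on the strand of the gene, for Wnt9b (chr11:103749772-103750071, minus strand), Wnt3 (chr11:103773925-103774224, plus strand) and Lmo1 (chr7:109175158-109175457, minus strand, the first of 2 windows listed). Capitals mark matches, on either strand, to CTTTGA (a TCF/LEF core), GCCNNNGGC (an AP-2 core, which reads the same on both strands) or TAATCC (an OTX and PITX core). No marked match overlaps another motif.
Wnt9b: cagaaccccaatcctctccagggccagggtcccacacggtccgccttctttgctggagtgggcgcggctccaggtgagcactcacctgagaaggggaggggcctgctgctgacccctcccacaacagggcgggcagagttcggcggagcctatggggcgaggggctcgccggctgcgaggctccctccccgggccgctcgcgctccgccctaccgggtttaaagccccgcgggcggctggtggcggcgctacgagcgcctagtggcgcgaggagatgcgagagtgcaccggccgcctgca
Wnt3: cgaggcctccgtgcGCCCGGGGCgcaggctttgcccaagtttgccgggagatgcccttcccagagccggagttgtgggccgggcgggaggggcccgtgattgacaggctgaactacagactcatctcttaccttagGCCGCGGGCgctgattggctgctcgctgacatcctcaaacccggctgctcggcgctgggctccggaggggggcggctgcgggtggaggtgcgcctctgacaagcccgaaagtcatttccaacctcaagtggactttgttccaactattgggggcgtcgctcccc
Lmo1: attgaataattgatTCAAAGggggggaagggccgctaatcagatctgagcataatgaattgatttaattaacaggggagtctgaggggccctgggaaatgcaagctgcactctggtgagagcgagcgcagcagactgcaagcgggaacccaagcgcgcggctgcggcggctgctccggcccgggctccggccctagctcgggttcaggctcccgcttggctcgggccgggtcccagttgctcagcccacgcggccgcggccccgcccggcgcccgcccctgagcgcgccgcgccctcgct

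The Wnt3 window held 2 AP-2 matches, the Lmo1 window 1 TCF/LEF match and the Wnt9b window none of the 3. Among the first listed windows of 27025 genes, 16.2% held the TCF/LEF letters, 16.5% the AP-2 letters and 7.16% the OTX and PITX letters. Over the 149 higher genes with a window, the shares were 4.03%, 32.9% and 3.36%, against 10.98%, 26.8% and 4.87% of the 4928 genes looked at that had one. Matches are a description of letters and say nothing of binding.

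Of 13 transcription factors looked at that are known from aboral and anterior ectoderm, 11 were higher than in all other cells and none was lower (median log2 ratio 0.60), namely Tfap2a, Tfap2b, Tfap2c, Gata3, Trps1, Irx3, Irx4, Irx5, Dlx1, Dlx2 and Dlx3, while Grhl2 and Trp63 did not meet the criteria. Against ventral cells only Dlx1, Dlx2 and Dlx3 were higher, Irx3 and Irx4 were lower, 8 were neither, and the median log2 ratio was -0.25. In members and in all other kept cells, Tfap2a was 192 against 128 CPM, Irx5 115 against 65.5 CPM and Dlx3 165 against 90.3 CPM. Of 11 dental and oral factors, 10 were lower (among them Pitx1, Irx1, Nkx2-3, Tlx1, Sox2, Foxe1, Barx1, Barx2 and Meis1), none was higher, and the median log2 ratio was -1.56. Of those 11, 5 were in enough cells only among the other cells. The dental factors were not all absent, since Pitx1 stood at 116 CPM in members (342 CPM in the others). Both lists hold genes that the study used to tell these regions apart in this library, so their direction is not independent evidence.

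Signalling genes outside the WNT pathway fell on both sides. Of 9 FGF genes looked at, of which 4 were in enough cells only among the other cells, 7 were lower, including the ligand Fgf9 (29.0 against 64.1 CPM) and the response genes Etv5 (12.9 against 40.2 CPM), Dusp6 (18.3 against 44.5 CPM) and Spry2 (16.5 against 38.6 CPM). The epithelial receptor gene Fgfr2 was the 1 higher, at 406 against 267 CPM. Of 9 Hedgehog genes, the ligand-binding co-receptors Cdon, Boc and Gas1 were higher, and 3 were lower, among them Ptch1 and Gli1, known targets of the pathway, with Ptch1 at 86.9 against 122 CPM. Of 18 BMP genes, 5 were higher (Msx1, Msx2, Id2, Nbl1 and Htra1) and the activin and BMP antagonist Fst was lower, at 12.3 against 70.4 CPM. Msx1, a homeobox gene that responds to BMP, was 261 against 122 CPM. Among 5 Notch genes, Notch1, Jag1 and Hes6 were lower and none was higher, and of 6 ectodysplasin and NF-kB genes Tnfrsf19, a TNF receptor family member, was higher, at 223 against 113 CPM.

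Of 22 axon guidance genes, 6 were higher (Robo2, Sema3a, Nrp2, Plxna2, Ephb2 and Unc5b) and 4 were lower (Robo1, Sema3d, Epha4 and Epha7). The other 12 were neither, and the median log2 ratio of the 22 was 0.079. The semaphorin Sema3a was 321 against 164 CPM and Plxna2, a semaphorin co-receptor, 234 against 116 CPM. Of 10 secreted factors, 4 were higher and none was lower, and the higher ones included Cxcl14, the KIT ligand Kitl (97.2 against 53.3 CPM) and the neurotrophin Bdnf (35.3 against 18.4 CPM). Of 6 ion channel and calcium-binding genes, Piezo2 and Pcp4l1 were higher and the bicarbonate transporter Slc4a4 was lower. The LIM factor and retinoid lists split as well, with Lmx1b and Crabp1 higher and Isl1 and Crabp2 among those lower.

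Structural genes went both ways. Of 11 adhesion genes, the claudin Cldn7, the desmosomal cadherins Dsc3 and Dsg2 and the connexin Gja1 were lower and none was higher (median log2 ratio -0.29). Of 6 keratins, Krt5 (661 against 467 CPM) and Krt7 were higher and Krt8 and Krt18 lower. Of 20 basement membrane and matrix genes, Col12a1, Npnt and Timp3 were higher and 1 was lower. None of 20 proliferation genes met the criteria, with a median log2 ratio of -0.13 and Top2a at 505 against 598 CPM. The cell cycle inhibitor gene Cdkn1c was 653 against 361 CPM, and Ccnd3 was also higher while Cdkn1a was lower. Of 9 dissociation and stress genes, Fos and Fosb were higher (Fos 379 against 278 CPM) and Atf3 lower, and the part of cell handling in the results was not tested.

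**Figure D5:**
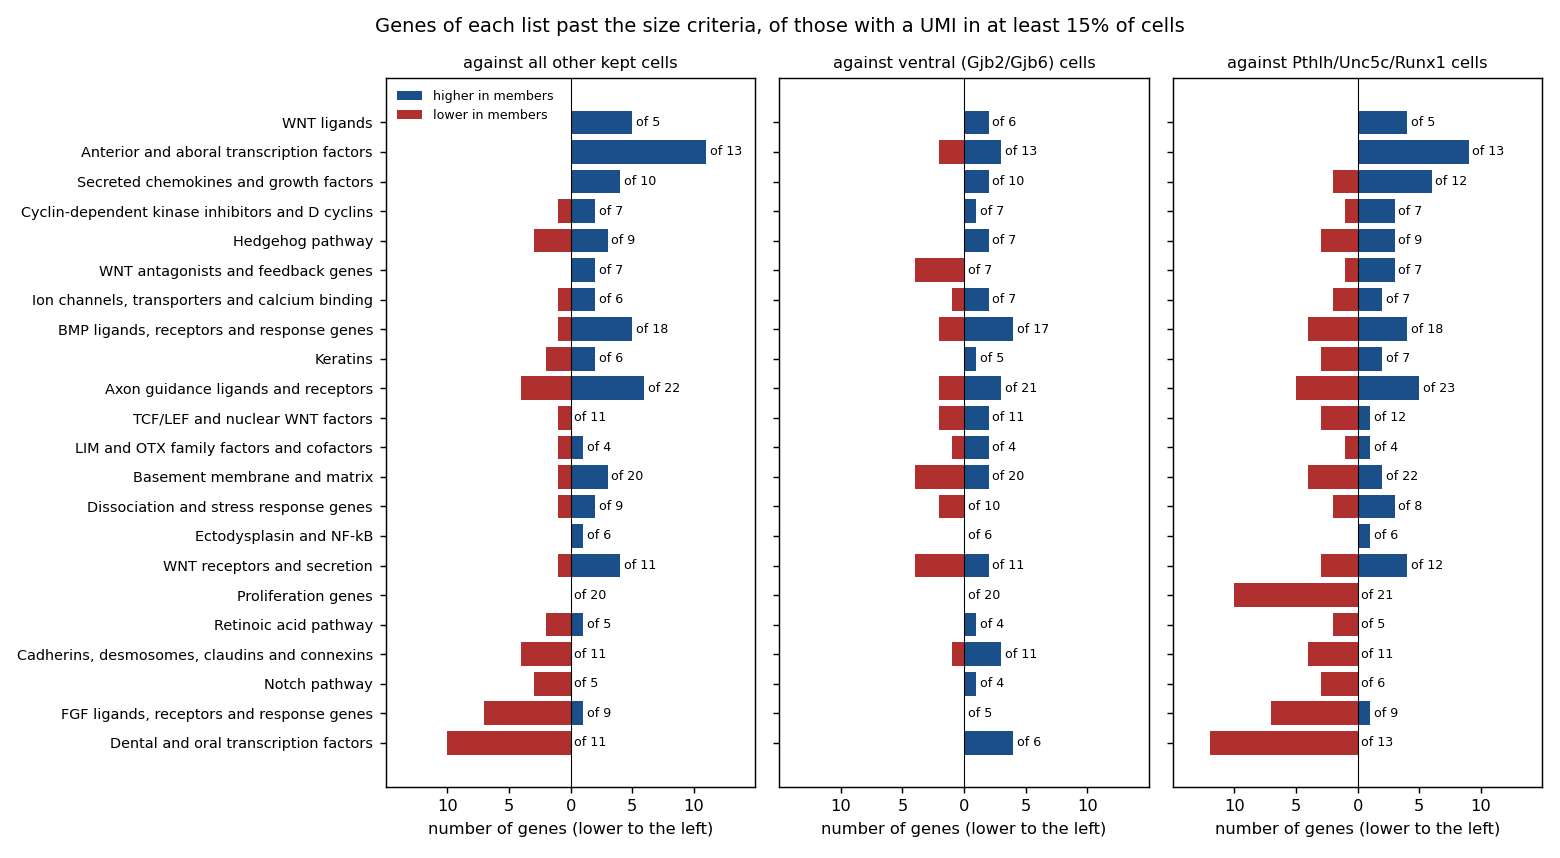
Number of genes of each list that were higher (blue, to the right) or lower (red, to the left) in members against all other kept cells, ventral cells and cells chosen by Pthlh, Unc5c and Runx1, with the number looked at beside each bar. Against all other cells the aboral factors (11 of 13 higher) and the dental and oral factors (10 of 11 lower) lie at opposite ends, and against ventral cells 4 of 6 dental and oral factors were higher.

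The ventral cells, 1079 cells with at least 3 UMIs of the connexins Gjb2 and Gjb6 within the other limits, were compared with the members. Their name covers only part of what the rule can take in. The study mapped Gjb6 to ventral epithelium but used Gjb2 as a marker of its anteroventral-lateral cluster. Kcnj2, another anteroventral-lateral marker, was 14.9 CPM in members and 26.7 CPM in these cells. Ventral and anterior-lateral cells cannot be told apart in this group. By their Xist and Y-linked UMIs, 22.0% of ventral cells were female and 52.6% male, against 32.1% and 45.6% of members. The sexes come from different embryos, so the groups drew on the pooled embryos in different shares. Against them 172 of 6389 genes were higher in members (2.69%) and 184 lower (2.88%), with a median log2 ratio of 0.0023. These cells also carried Wnt9b (128 CPM), Otx1 (64.0 CPM) and Lmo1 (325 CPM), which the rule for them did not use. Nkx2-3, a homeobox gene of oral epithelium, was 55.2 CPM in members and 10.6 CPM in ventral cells, Isl1, a LIM homeobox gene of the medial epithelium, 74.5 and 16.9 CPM and Dlx1 100 and 29.1 CPM. Wnt5a was 154 and 53.7 CPM, the BMP pseudoreceptor Bambi 94.9 and 31.7 CPM, Bdnf 35.3 and 12.2 CPM and Pcp4l1 45.8 and 17.2 CPM. Cpne5, Pid1 and Plcb1 complete the 10 largest.

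In the other direction, Skap2, an adaptor protein, was 11.4 CPM in members and 66.6 CPM in ventral cells, the POU factor Pou3f1 10.1 and 39.6 CPM and the matrix proteoglycan Dcn 38.7 and 99.3 CPM. Lmx1b, a LIM homeobox gene, was 24.5 and 56.4 CPM, and Pcdh9, Atf3, Cldn1, Slc2a3, Rhbdl3 and C130021I20Rik were the rest of the 10 smallest ratios. Of 6 WNT ligands looked at here, only Wnt4 (1002 and 634 CPM) and Wnt5a were higher in members. Wnt3 (180 and 169 CPM), Wnt6 (369 and 455 CPM), Wnt7b (375 and 332 CPM) and Wnt10a (19.5 and 24.4 CPM) did not meet the criteria, so 3 of the 5 ligands higher against all other cells were not higher against ventral cells. Among the receptor, feedback and nuclear genes, Axin2 (50.7 and 76.4 CPM), Znrf3 (118 and 156 CPM), Kremen2 (115 and 175 CPM), Rnf43 and Lef1 (179 and 277 CPM) were lower, as were Fzd10, Lgr6, Lgr4, Ryk and Ctnnb1, while Fzd1, Fzd3, Tle1 and Tle4 were higher. Of 7 antagonist and feedback genes, 4 were thus lower in members and none was higher, with a median log2 ratio of -0.39. Rnf43 alone among these turned to the other sign when only cells with at most 5% mitochondrial counts were used. Cxcl14 (1783 and 2295 CPM), Tfap2b (898 and 1092 CPM) and Piezo2 (127 and 140 CPM) did not meet the criteria.

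A second comparison used 1840 cells with at least 3 UMIs of Pthlh, Unc5c and Runx1, a rule meant for the anterodorsal epithelium. The data go against that name for part of them, since they held 137 CPM of Barx1, 79.2 CPM of Sox2 and 30.9 CPM of Tbx1, and 777 of them had at least 3 UMIs of Cxcl14 and Tfap2b together. They are therefore called by their genes. The anterodorsal-medial markers outside the rule, Slc4a4, Cntn2 and Rxfp1, went with the name. All 3 were higher in these cells than in members and summed to 196 against 103 CPM, though 1 was in enough cells only there. Of the 1840 cells, 10.1% were called doublets. Against them 323 of 6667 genes were higher in members (4.84%) and 451 lower (6.76%). Robo2 was 183 CPM in members and 22.4 CPM in these cells, Tfap2b 898 and 152 CPM, Irx4 36.0 and 7.99 CPM, Col12a1 160 and 35.6 CPM and Lmx1b 24.5 and 3.54 CPM. C130021I20Rik, Rhbdl3, Rprml, Nr2e3 and Dcn were also among the 10 largest ratios. Apart from Barx1, Sox2 and Tbx1, the 10 lowest included Tgfb2 (4.94 and 110 CPM), Ano1, Dsc3, Zfp385c, Atxn1 and Foxe1. Of 21 proliferation genes, 10 were lower in members and none was higher, with Top2a at 505 and 738 CPM.

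Within those 777 cells, a choice made after the data were seen, the contrast narrowed for some genes and held for others. Robo2 was 36.0 CPM there, a log2 ratio of 2.34 (2.15 to 2.54), and Dsc3 153 CPM, a log2 ratio of -3.69 (-3.94 to -3.45). Msx1, higher in members against all 1840 cells, was 320 CPM in the 777 and 261 CPM in members, and Wnt5a 237 and 154 CPM. Msx1 therefore changed sign, and so did Hes6. Of these 777 cells 16.9% were called doublets, against 5.88% of members, and the part of doublets in these differences was not tested.

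Members differed among themselves along the medial genes. The 383 members with at least 2 UMIs of Isl1 and Tlx1 were compared with the 1042 that had none, a split chosen after the values were seen. Of 6691 genes, 369 were higher (5.51%) and 192 lower (2.87%) in the former. Crabp1, a retinoic acid binding protein, was 117 and 45.4 CPM, Dlx1 143 and 71.1 CPM and Syt1, a synaptotagmin, 26.5 and 6.90 CPM. Lmx1b was 12.0 and 33.1 CPM, Robo2 109 and 215 CPM, Fzd10 63.3 and 117 CPM and Dcn 16.7 and 51.0 CPM. The genes lower in the Isl1 and Tlx1 members included Lmx1b, Dcn and C130021I20Rik, which were also lower in members than in ventral cells. Depth and proliferation moved with this split, at medians of 7840 and 6229 UMIs and 704 and 414 CPM of Top2a, and their part was not tested. Of the genes that chose the cells, Lmo1 was 308 and 386 CPM (log2 ratio -0.32, -0.43 to -0.22), Otx1 164 and 137 CPM (0.26, 0.11 to 0.42) and Wnt9b 187 and 203 CPM (-0.12, -0.26 to 0.024).

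Members were also split by their UMIs of Wnt9b, a gene that had chosen them, and no difference was tested. Between the 764 members with at least 2 and the 487 with none, 132 of 6419 genes were higher (2.06%) and 69 lower (1.07%) in the former. Mpp7, a scaffold protein of cell junctions, was 44.2 and 25.2 CPM, and Cenpa, the histone variant of centromeres, 87.8 and 141 CPM. Both were chosen after their values were seen. Piezo2, Pcp4l1, Tfap2b, Isl1 and Cxcl14 did not meet the criteria. Piezo2 was 133 and 120 CPM, with a log2 ratio of 0.14 (-0.04 to 0.32), Pcp4l1 46.6 and 42.6 CPM, Tfap2b 870 and 916 CPM and Isl1 73.4 and 73.1 CPM. Cxcl14 was 1708 and 1879 CPM. Otx1 and Lmo1 were lower in the former, which the rule fixes in part, since members without Wnt9b had to reach 3 UMIs with the other pair.

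At E9.5 the same rule found few cells. Of 2936 kept cells with at least 2 Epcam UMIs and at most 1 of Prrx1, Twist1 and Pdgfra, 90 (3.07%) met it, at a median of 13408 UMIs. The rule was carried there mostly by Wnt9b, at 186 CPM (163 to 211), with Lmo1 at 54.8 CPM (42.6 to 69.3) and Otx1 at 7.94 CPM (3.81 to 14.6). Of genes higher in members at E12.0, Cxcl14 was at 1.59 CPM (0.19 to 5.73), Piezo2 at 3.97 CPM (1.29 to 9.26) and Tfap2b at 15.1 CPM (9.08 to 23.6) in these cells. Msx1 was at 46.0 CPM in the 90 cells and 34.1 CPM over all 2936, Gata3 at 35.7 and 33.7 CPM, Msx2 at 32.5 and 15.8 CPM, Robo2 at 29.4 and 30.8 CPM and Wnt3 at 18.3 and 7.47 CPM. Over all 2936 cells Pcp4l1 was 0.42 CPM. WNT ligands were present, with Wnt4 at 201 CPM and Wnt6 at 157 CPM in the 90 cells and 144 and 88.7 CPM over all 2936. Against the other Epcam-positive cells 845 of 7812 genes were higher (10.8%) and 447 lower (5.72%), shares to be read with the small number of cells. Haemoglobin genes of red blood cells were among the lower ones. Hba-x was 54.0 CPM in the 90 cells and 189 CPM in the others, Hbb-y 76.2 and 226 CPM and Hbb-bh1 15.9 and 50.3 CPM. The part of red blood cell transcripts in these ratios was not tested. The libraries differ in sorting, depth and gene list, so the levels stand side by side and were not compared.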

How the data were processed

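Single cells were sequenced with 10x Genomics at E12.0 and E9.5, 1 library per stage. The authors deposited UMI counts per gene and barcode, unnormalized, and how barcodes were selected as cells is not given in the sources used here. Cell Ranger 2.0.0 and GRCm38 are named in the submitters' processing notes, and the file headers name other versions of the program. Kept cells had 200 to 5500 genes and at most 10% mitochondrial UMIs (11355 of 11663 barcodes at E12.0, 77936364 UMIs; 12744 of 14293 at E9.5). Members and gene lists were chosen with earlier results of these data known.

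UMIs were summed per group of cells, with exact Poisson, binomial and conditional 95% intervals. No test was run. Named genes were the rule genes and markers, genes of fixed lists, the 25 largest and 15 smallest ratios against all other cells and the 10 of each against the other groups, at 20 CPM or more. The scripts were tested on simulated data. Nearest cells came from 30 principal components of 2000 variable genes. Older symbols were matched by Ensembl identifier. The software was Python 3.11.15, scanpy 1.11.5 (with Scrublet), scikit-learn 1.9.0, scipy 1.17.1, matplotlib 3.10.9, pandas 2.3.3 and numpy 2.4.6, with a seed of 1. Alternatives changed the cell filters, the rule, the cells compared, the weighting and the size criteria. A few genes of the lists are not reported here by name.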

Additional observations from a re-analysis of the deposited data

Results flagged for a closer look

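Of 187 named genes looked at at both stages, 13 (6.95%) met the size criteria in opposite directions at the stages, higher in the cells that meet the rule at one and lower at the other. The difference was not tested, and the E9.5 values rest on 90 cells. The ratios have unlike comparators. At E12.0 they are against all other kept cells of the sorted library, and at E9.5 against the other Epcam-positive cells of unsorted arches. A difference between the ratios can therefore come from the cells compared as well as from the cells that meet the rule. Of the same 187, 23 were higher at both and 5 lower at both. Over all 5993 genes looked at at both stages, 48 were higher at both, 17 lower at both, 7 higher at E12.0 and lower at E9.5 and 30 the reverse, so 0.617% were opposite. Many named genes were named for their E12.0 ratio, so these shares cannot be set against each other. Irx1 had a log2 ratio of -3.19 at E12.0 and 0.56 at E9.5, a difference of -3.76, and Sox9 -2.06 and 0.89, a difference of -2.96. Crabp2 stood at -1.53 and 0.38 (difference -1.91), Jag1 at -0.90 and 0.73 (-1.63), Cdkn1a at -0.77 and 0.58 (-1.36) and Sema3d at -0.88 and 0.41 (-1.30). Notch1 stood at -0.41 and 0.82 (-1.23), Robo1 at -0.48 and 0.63 (-1.11), Ptch1 at -0.49 and 0.50 (-0.99) and Fzd7 at -0.50 and 0.38 (-0.88). In the other direction, Kitl stood at 0.87 and -1.14 (2.00), Ehbp1 1.06 and -0.39 (1.45) and Ephb2 0.75 and -0.38 (1.13). The E9.5 intervals reached past 0 for Ephb2 (-0.98 to 0.16, 28 UMIs in the 90 cells), Ehbp1 (-0.91 to 0.090, 36 UMIs) and Fzd7 (-0.057 to 0.79, 50 UMIs), and the nearest bound to 0 among the other 10 was 0.017, for Sema3d.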

How the results depend on the processing

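The number of members, 1871, was 336 with at most 5% mitochondrial counts, 601 in female cells, 854 in male cells and 3341 without the upper limits of the rule. Genes past the size criteria against all other cells (424), ventral cells (356) and Pthlh/Unc5c/Runx1 cells (774) came to 878, 1403 and 1185 with at most 5% mitochondrial counts, 87, 42 and 169 at a ratio of 2, and 240, 199 and 473 with a UMI in 25% of cells. In female cells 769 genes passed against ventral cells, and against cells without a Wnt9b, Otx1 or Lmo1 UMI, an alternative chosen after seeing the data, 778 genes passed, 403 of them higher. Without called doublets the counts were 457, 385 and 839. Members made up 48.0% of the nearest cells of members, 46.2% with 10 components, 47.0% over 50 cells and 37.3% after thinning to 4100 UMIs. They were 13.6% of all the cells used after thinning and 16.5% otherwise. The other counts stayed within 1.5 times. A similar count does not mean the same cells. After thinning to 4100 UMIs 1407 cells met the rule, and 1098 of them (78.0%) were among the 1796 members that were thinned. The 336 log2 ratios of named genes that met the size criteria had 4415 values under alternatives. Of these values, 1227 lay outside the main interval with the same sign and 3 had the other sign. The 3 were Rnf43 against ventral cells with at most 5% mitochondrial counts (0.048), and Msx1 (-0.29) and Hes6 (0.20) against the Pthlh/Unc5c/Runx1 cells with Cxcl14 or Tfap2b. That choice of cells was also made after seeing the data, and the cause was not tested. Ratios that did not meet the criteria are not in this count. Among them, Krt15 and Rxfp1 against all other cells changed sign in male cells (-0.044 and -0.020). No paired analysis was possible because each stage is 1 library and no test was run.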
